A study of Mus musculus with 10 samples.

Results

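Complex I (NADH:ubiquinone oxidoreductase) is the entry point of the mitochondrial respiratory chain for electrons from NADH. Its peripheral arm takes electrons from NADH on a flavin, passes them along iron-sulfur clusters and hands them to ubiquinone, and its membrane arm uses the energy released to pump protons. The heart depends on this chain for nearly all of its ATP, and most subunits of the complex are encoded in the nucleus, made in the cytosol and imported. The genes described here are the 38 of 23337 in the deposited count table whose symbol starts with Ndufa, Ndufb, Ndufc, Ndufs or Ndufv, with the assembly factors named Ndufaf left out. By name 36 of them are subunits of complex I. Of the other 2, Ndufa4 is now known as a subunit of complex IV, and Ndufa4l2 is a paralogue of Ndufa4. Subunits encoded on mitochondrial DNA are not analysed here.

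The measurements are polyA RNA sequencing of mouse cardiomyocytes (heart muscle cells) taken on postnatal day 14. Every animal, controls included, was given an adeno-associated virus (AAV9-cTNT-Cre) on postnatal day 1, at 3.6e+08 viral genomes (vg) per g. The virus carries the recombinase Cre under the cardiac troponin T promoter, which is active in cardiomyocytes. The knockout group (Actn2-FF) has 2 floxed alleles of Actn2, the gene of the Z-disc crosslinker alpha-actinin-2, and the heterozygote group (Actn2-F+) has 1 floxed and 1 normal allele, so the heterozygotes also carry Cre and can lose 1 copy of the gene. Each group has 5 biological replicates by the design text, called animals below, and the labels say nothing more about how they were separated. Cells were released by collagenase perfusion and sorted by fluorescence, with the gate not given in the sources used here. The comparison asks how transcripts of these genes differ when the second copy of Actn2 is also floxed.

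Actn2 itself was counted at 3366, 3454, 3474, 2930 and 2677 CPM (reads of a gene per 1e6 reads of its library, scaled between libraries) in animals 1 to 5 of the heterozygote group. Knockouts 1 to 5 had 1286, 1250, 1145, 1182 and 1220 CPM. All knockouts lay below all heterozygotes, which matches the labels, with a log2 fold change of −1.39 ± 0.0910 (SE). Which exons of Actn2 are deleted is not given in the sources used here, and the count covers the whole gene, so it may include reads outside the deleted part. Total counts per animal ran from 8086656 to 25237696. Cardiomyocyte markers summed to 98680 to 122500 CPM in heterozygotes and 93810 to 118700 CPM in knockouts, and 1 of the 8 (Tnni3, cardiac troponin I) fell. Of all tested genes edgeR called 8.64% lower and 10.2% higher, the shares to set beside this and the marker counts that follow. Endothelial markers summed to 445 to 666 CPM in heterozygotes and 284 to 488 CPM in knockouts; 2 of 8 (Egfl7 and Cldn5) fell by edgeR and by limma and 5 by DESeq2, and all 8 were lower at an unadjusted p below 0.05, with a median log2 fold change of −0.42. Fibroblast markers summed to 297 to 492 CPM against 273 to 594 CPM, with 0 of 7 tested called by edgeR (1 at an unadjusted p below 0.05, 0 by DESeq2 and by limma). Mural cell markers summed to 177 to 299.7 CPM against 202 to 309.7 CPM. Of these 7, Cspg4 rose by edgeR, from a mean of 37.0 to 132 CPM. Cnn1, at means of 1.63 and 3.45 CPM, had a log2 fold change of 1.05 and was not called (edgeR adjusted p = 0.0806). By DESeq2 2 of the 7 were higher, by limma 1, and at an unadjusted p below 0.05 2. The other 5 were not called by edgeR and had negative log2 fold changes, and the median of the list was −0.34. Immune markers summed to 13.1 to 31.8 CPM against 7.497 to 10.2 CPM, and 1 of 3 tested (Csf1r) fell. Red cell markers summed to 1.60 to 15.8 CPM against 1.99 to 8.72 CPM, and the 1 tested (Beta-s) was not called. Hba-a1, Hba-a2 and Hbb-b1 were at 0 in all animals. Reads with more than 1 alignment are dropped by default, so these counts of 0 do not show that red cells were absent.

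Transcripts of complex I subunits were lower in the knockout. Of the 38 genes, 37 passed the filter on low counts, and 24 of these fell, all of them subunits, called where the Benjamini-Hochberg adjusted p of edgeR's quasi-likelihood test, taken over all 11870 tested genes, was under 0.05. Of all tested genes 18.9% were called in either direction and 8.64% were called lower, against 64.9% of the 37 that fell. By edgeR 0 of the 37 were higher, also at an unadjusted p below 0.05, by DESeq2 and by limma, while 10.2% of all tested genes were called higher. The median log2 fold change was −0.47 over the 37, beside 0.0023 over all tested genes, and 36 of the 37 were negative. In 18 of the 37 every knockout lay below every heterozygote, beside 6.32% of all tested genes. In RNA from pooled cells, fewer cells of a type and less RNA per cell cannot be told apart.

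The share of all counts that fell on the 38 genes was 2.38%, 2.41%, 2.18%, 2.69% and 2.72% in the heterozygotes, in the order of their numbers 1 to 5. In the knockouts it was 2.02%, 1.66%, 2.04%, 1.90% and 1.76%. Every knockout was thus below every heterozygote in this share. The Wilson 95% interval was widest in heterozygote 4, at 2.68% to 2.70%, and covers counting error only. With the mean log2 CPM of the endothelial markers as a covariate, 12 of the 37 were called with a median of −0.44, while the calls over all genes dropped from 2241 to 876. The 12 calls lost were those of Ndufs1, Ndufv2, Ndufv3, Ndufs4, Ndufs6, Ndufa12, Ndufa6, Ndufa3, Ndufa13, Ndufb11, Ndufb5 and Ndufab1. With library totals in place of TMM factors 18 were called with a median of −0.39, where the median of all tested genes was 0.0839. The 6 calls lost were those of Ndufs4, Ndufa12, Ndufa3, Ndufa13, Ndufb5 and Ndufab1.

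Ndufs5, a subunit of the membrane arm, had 0 counts in all 10 animals and was not tested. Of its 509 annotated exon bases 484 are shared in the table's annotation with BC002163, and a read over both genes was counted for neither. Its count of 0 therefore says nothing about its expression. Ndufb1 was not in the table under that symbol or as Ndufb1-ps.

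Start regions were searched for 4 motifs of factors known to bind at respiratory chain genes, and most members held none of them. Windows are printed for the YY1 and NRF1 matches only. RefSeq promoter windows (build GRCm38.p6, 250 bases before to 50 bases after the annotated start) were held for 33 of the 38. Exact letters were searched on both strands. The YY1 letters AAGATGGCG stood in 5 of the 33 (15.2%), beside 1.64% of all 27025 windows and 3.69% of the windows of tested genes. YY1 is a zinc finger factor known to bind near the starts of many mitochondrial genes. In all 5 the letters lay on the gene's own strand, 23 to 36 bases after the start, and their ATG is the annotated start codon of the gene (GENCODE vM21) in 5 of 5. Windows of 30 bases follow, written in the direction of the gene, with the YY1 letters in capitals, for Ndufa9 (chr6:126849097-126849126, minus strand), Ndufs7 (chr10:80249462-80249491, plus), Ndufs6 (chr13:73328433-73328462, minus), Ndufs4 (chr13:114388045-114388074, minus) and Ndufc1 (chr3:51408915-51408944, minus).
Ndufa9: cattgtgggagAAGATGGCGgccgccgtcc
Ndufs7: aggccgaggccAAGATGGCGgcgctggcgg
Ndufs6: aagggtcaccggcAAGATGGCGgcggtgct
Ndufs4: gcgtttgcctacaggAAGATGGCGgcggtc
Ndufc1: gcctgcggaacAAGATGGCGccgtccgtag
The log2 fold changes of these genes ran from −0.66 (Ndufs7) to −0.28 (Ndufc1), and Ndufc1 was not called.

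The letters GCGCATGC, the centre of the site of the nuclear respiratory factor NRF1, stood in 3 of the 33 windows (9.09%), beside 3.05% of all windows and 6.25% of those of tested genes. In Ndufa11 they overlap a match on the other strand, and in Ndufa6 and Ndufa8 they lie on the opposite strand, so that the run reads GCATGCGC. The windows are from Ndufa11 (chr17:56717691-56717720, plus strand), Ndufa6 (chr15:82354356-82354385, minus) and Ndufa8 (chr2:36049328-36049357, minus), with the match in capitals.
Ndufa11: acctgcactgcGCGCATGCgcgcacgcctt
Ndufa6: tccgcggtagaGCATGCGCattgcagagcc
Ndufa8: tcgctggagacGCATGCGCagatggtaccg
Of these 3 genes Ndufa6 and Ndufa8 fell and Ndufa11 was not called. The GABP letters CCGGAAG stood in 4 windows (12.1%; Ndufb6, Ndufb7, Ndufs3 and Ndufs8), beside 9.93% of all windows and 20.3% of those of tested genes. The letters CAAGGTCA of the estrogen-related receptors stood in 1 window (3.03%; Ndufs5), beside 1.76% and 1.34%. Of the 33 windows 20 held none of the 4 motifs, and a match is a description of letters and not of binding.

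The last 150 bases before the start are given for the subunit with the largest fall and for the only subunit with a positive log2 fold change, Ndufb10 (chr17:24724424-24724573, minus strand) and Ndufa1 (chrX:37191239-37191388, minus strand).
Ndufb10: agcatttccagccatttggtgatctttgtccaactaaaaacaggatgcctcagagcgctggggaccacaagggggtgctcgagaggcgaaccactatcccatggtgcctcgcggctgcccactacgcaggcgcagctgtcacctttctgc
Ndufa1: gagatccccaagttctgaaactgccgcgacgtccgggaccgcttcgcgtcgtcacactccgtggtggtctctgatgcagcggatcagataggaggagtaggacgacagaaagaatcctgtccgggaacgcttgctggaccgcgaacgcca
Neither run holds any of the 4 motifs, which says only that these letters are not in these windows.

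The core subunits carry the flavin and the iron-sulfur clusters and are shared with the bacterial enzyme. All 7 that are encoded in the nucleus fell, by 0.37 to 0.72 on the log2 scale with a median of −0.58. In 6 of the 7 no knockout overlapped a heterozygote. Among all tested genes 8.64% were called lower and 6.32% had every knockout below every heterozygote. Ndufv1 (chr19:4007505-4012725, 10 exons; coordinates of members are mm10, as deposited) binds NADH and the flavin. It was at 1869, 2103, 1788, 1529 and 1775 CPM in the heterozygotes and 1246, 1214, 1174, 1239 and 1177 CPM in the knockouts, with animals here and below in the order of their numbers. The knockouts lay close together and all below the lowest heterozygote, number 4, and the log2 fold change was −0.58 ± 0.0883 (SE; adjusted p = 0.000405).

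Ndufv2 (chr17:66078795-66101491, 8 exons) holds an iron-sulfur cluster beside the flavin. It was at 1112, 1109, 951, 1180 and 1141 CPM in the heterozygotes and 855, 678, 756, 793 and 653 CPM in the knockouts. Heterozygote 3 was low and still above knockout 1, the highest knockout, and the log2 fold change was −0.56 ± 0.0957 (SE; adjusted p = 0.00109). With the endothelial covariate its adjusted p was 0.0505. Ndufs1 (chr1:63143592-63176822, 20 exons), the largest subunit of the peripheral arm, holds 3 further clusters of the electron path.

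Ndufs1 was at 1514, 1069, 1249, 1229 and 1388 CPM in the heterozygotes and 1048, 1100, 924, 992 and 918 CPM in the knockouts. Heterozygote 2 lay below knockout 2, so the groups overlapped, and the log2 fold change of −0.37 ± 0.101 (SE; adjusted p = 0.0183) was the smallest among the core subunits. The call was lost without heterozygote 1 or without knockout 3 (highest adjusted p = 0.0571), without heterozygotes 4 and 5 together (0.0546) and with the endothelial covariate (0.157). Of its merged exons, 248 bases are shared with Gm11602, and reads there were counted for neither gene.

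Ndufs7 (chr10:80249452-80256792, 8 exons) holds the last cluster before ubiquinone. It was at 752, 941, 730.2, 682 and 733 CPM in the heterozygotes and 545, 413, 535, 492 and 445 CPM in the knockouts. Heterozygote 2 was the highest and knockout 2 the lowest, without overlap, and the log2 fold change was −0.66 ± 0.109 (SE; adjusted p = 0.000814). Ndufs8 (chr19:3908870-3912717, 7 exons), which holds 2 clusters of the Q module, was at 542, 649, 491, 505 and 515 CPM in the heterozygotes and 389, 297, 346, 323 and 289.5 CPM in the knockouts. The groups did not overlap, and the log2 fold change of −0.72 ± 0.107 (SE; adjusted p = 0.000369) was the largest fall among the core subunits.

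Ndufs3 (chr2:90894636-90904721, 7 exons) is a core protein without a cluster that seeds the assembly of the Q module. It was at 382, 397, 358, 341 and 378 CPM in the heterozygotes and 289, 232, 251, 266 and 239 CPM in the knockouts. Its spread was small in both groups, they did not overlap, and the log2 fold change was −0.54 ± 0.0880 (SE; adjusted p = 0.000736). A processed pseudogene, Gm12251, shares 792 bases of its sequence at an identity of 97% or more, so reads that align to both would not be counted. The plot of core subunit levels shows these values animal by animal.

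**Figure D1:**
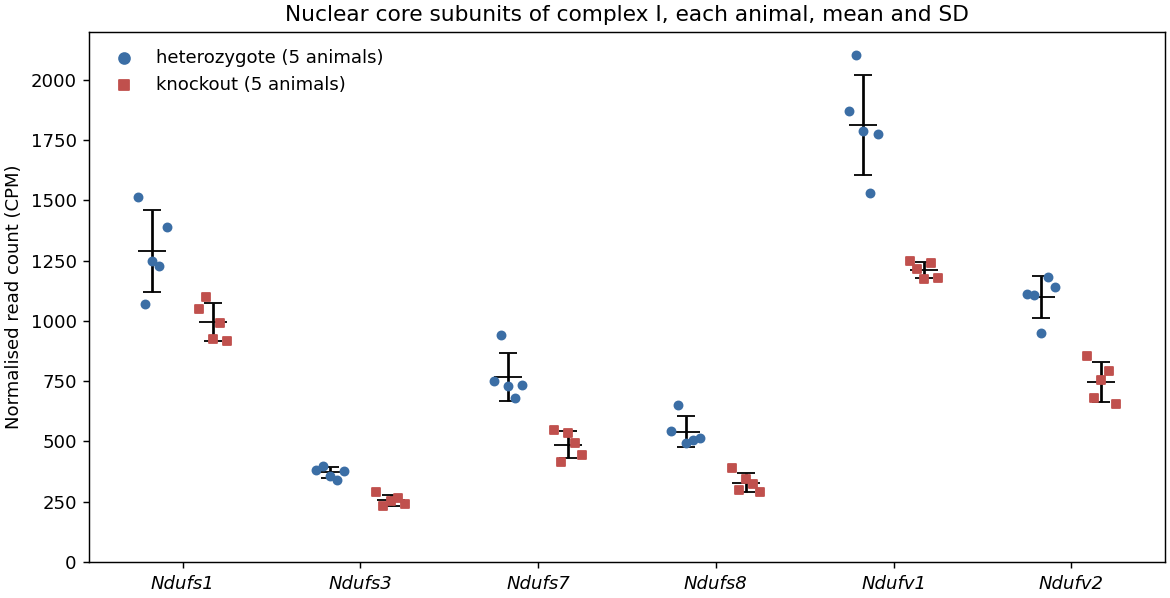
Scaled read counts (CPM, vertical axis from 0) of 6 nuclear core subunits in 5 heterozygotes (circles) and 5 knockouts (squares), with mean and SD bars. The groups overlap only for Ndufs1, where heterozygote 2 at 1069 CPM lies below knockout 2 at 1100 CPM.

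Accessory subunits surround the core, stabilise it or help to assemble it. Of the 28 tested, 17 fell, with a median log2 fold change of −0.42. In the N module, which oxidises NADH, 4 of 5 tested accessory genes fell with a median of −0.35. Ndufv3 (chr17:31520115-31531325, 4 exons), a small subunit beside the flavin, was at 411, 397, 374, 508 and 519.6 CPM in the heterozygotes and 334, 242, 340.4, 293 and 284 CPM in the knockouts. Heterozygotes 4 and 5 were high and knockout 2 low, without overlap of the groups, and the log2 fold change was −0.57 ± 0.121 (SE; adjusted p = 0.00491; 0.0800 with the endothelial covariate).

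Ndufs6, a zinc-binding subunit needed late in assembly, fell by 0.47 on the log2 scale (adjusted p = 0.0117; 0.0765 without heterozygotes 4 and 5) without overlap of the groups. Ndufs4, a subunit whose loss in mice gives a fatal brain disease, had a log2 fold change of −0.35 ± 0.107 (SE; adjusted p = 0.0353) and Ndufa12, which takes the place of an assembly factor in the finished enzyme, had −0.35 ± 0.116 (adjusted p = 0.0481). The groups overlapped for both. Leaving out any 1 of 7 animals (heterozygote 1, 4 or 5, or knockout 2, 3, 4 or 5) ended either call, with adjusted p up to 0.0934 for Ndufs4 and 0.116 for Ndufa12. Ndufa2, with a thioredoxin-like fold, had −0.30 and was not called. Without those 2 calls, 2 of 5 accessory genes of the N module fell, and with the endothelial covariate 0 of 5 were called.

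In the Q module, which passes electrons to ubiquinone, 2 of 4 accessory genes fell with a median of −0.49. Ndufa9 (chr6:126821863-126849144, 11 exons) sits where the peripheral and membrane arms meet. It was at 1040, 1061, 909, 932 and 1017 CPM in the heterozygotes and 702, 637, 639.8, 624 and 585.5 CPM in the knockouts. All knockouts were below all heterozygotes by a wide gap, and the log2 fold change was −0.64 ± 0.0826 (SE; adjusted p = 0.000117).

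Ndufa6, a subunit of the LYR motif family that contacts the acyl carrier protein, fell by 0.52 on the log2 scale (adjusted p = 0.0116), though heterozygote 3 at 283 CPM lay below knockout 1 at 285 CPM. Its adjusted p was 0.137 with the endothelial covariate and 0.0705 without heterozygotes 4 and 5. Ndufa5 had −0.46 ± 0.163 (SE; adjusted p = 0.0645). Ndufa7 (chr17:33824614-33838313, 4 exons) was at 259, 259, 224, 285 and 304 CPM in the heterozygotes and 251, 182, 252, 215 and 212 CPM in the knockouts. Knockouts 1 and 3 lay among the heterozygotes, and the log2 fold change of −0.26 ± 0.112 (SE; adjusted p = 0.121) was the third smallest in size among all members.

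In the proximal membrane arm, where the mitochondrially encoded subunits next to the Q module sit, 4 of 8 tested accessory genes fell with a median of −0.36. The count was 2 with the endothelial covariate, with library totals alone, without heterozygote 4, heterozygote 5 or both, and without knockout 2, 4 or 5. Ndufa10 (chr1:92439719-92473758, 10 exons), which resembles nucleoside kinases, was at 1202, 1263, 1121, 1131 and 1126 CPM in the heterozygotes and 817, 729, 749, 773 and 689.8 CPM in the knockouts. The heterozygotes lay within a narrow band and no knockout came near it. The log2 fold change was −0.64 ± 0.0792 (SE; adjusted p = 8.04e-05), the smallest adjusted p among the members.

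Ndufa8 (chr2:36036334-36049292, 4 exons), an intermembrane space subunit held by disulfides, was at 592, 729.9, 574, 648 and 643 CPM in the heterozygotes and 513, 369, 442, 434 and 394 CPM in the knockouts. The groups did not overlap, and the log2 fold change was −0.57 ± 0.103 (SE; adjusted p = 0.00165). Ndufa3 (−0.51, adjusted p = 0.0361) and Ndufa13 (−0.40, adjusted p = 0.0339), also known as GRIM-19, fell with overlapping groups. Leaving out any 1 of 6 animals (heterozygote 1, 4 or 5, or knockout 2, 4 or 5) ended the call of Ndufa3 (adjusted p up to 0.0939), and any 1 of 5 (heterozygote 4 or 5, or knockout 2, 4 or 5) that of Ndufa13 (up to 0.0796). Ndufa13 shares 344 of its 1249 exon bases with Tssk6.

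Ndufa11 (−0.32), Ndufc2 (−0.32) and Ndufc1 (−0.28) were not called. Ndufa1 (chrX:37187589-37191238, 3 exons), a short membrane subunit needed for assembly, was the only tested subunit with a positive value. It was at 472, 354, 416, 684 and 695.5 CPM in the heterozygotes and 574, 363, 760.2, 483 and 535 CPM in the knockouts. Both groups spread over nearly the same range, with knockout 3 the highest of all 10 animals and heterozygote 2 the lowest. The log2 fold change was 0.05 ± 0.207 (SE; adjusted p = 0.899), and its sign turned without heterozygote 2 (−0.06), heterozygote 3 (−0.03) or knockout 3 (−0.10).

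In the distal membrane arm, the far end of the proton pump, 7 of 11 tested accessory genes fell with a median of −0.44. The groups did not overlap in these 7. With the endothelial covariate 4 were called. Of all tested genes 8.64% were called lower, and in 6.32% every knockout lay below every heterozygote. Ndufb10 (chr17:24722067-24724388, 4 exons), another disulfide-bonded subunit, was at 975, 1219, 946, 1051 and 1019 CPM in the heterozygotes and 742, 556, 657, 619.9 and 563 CPM in the knockouts. Heterozygote 2 was the highest and knockout 2 the lowest. The log2 fold change was −0.73 ± 0.103 (SE; adjusted p = 0.000216), a level 39.8% below that of the heterozygotes and the largest fall among all members called.

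Ndufb8 (−0.55, adjusted p = 0.00183), widely used as a marker of intact complex I on blots, and Ndufb7 (−0.53, adjusted p = 0.00177), a myristoylated subunit, also fell. Ndufb11 (−0.49) and Ndufb9 (−0.44), another LYR motif subunit, fell too. Ndufb5 (−0.39) and Ndufab1 (−0.36), the acyl carrier protein that also serves lipoic acid synthesis, fell less, and each call was lost when certain single animals were left out. The call of Ndufb5 was lost without heterozygote 5, knockout 2 or knockout 5 (adjusted p up to 0.0623), and that of Ndufab1 without heterozygote 4 or 5 or knockout 2 or 5 (up to 0.0624). Ndufb4 (−0.47), Ndufb2 (−0.34) and Ndufb6 (−0.29) were not called.

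Ndufb3 (chr1:58586599-58595948, 3 exons), a single-span membrane subunit, was at 224, 190.2, 199, 267 and 269.6 CPM in the heterozygotes and 253, 170, 272, 206 and 193 CPM in the knockouts. The ranges of the groups nearly coincided. The log2 fold change was −0.07 ± 0.142 (SE; adjusted p = 0.770), and its sign turned without knockout 2 (0.0047), without heterozygotes 4 and 5 (0.09) and with an offset for gene length (0.04).

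**Figure D2:**
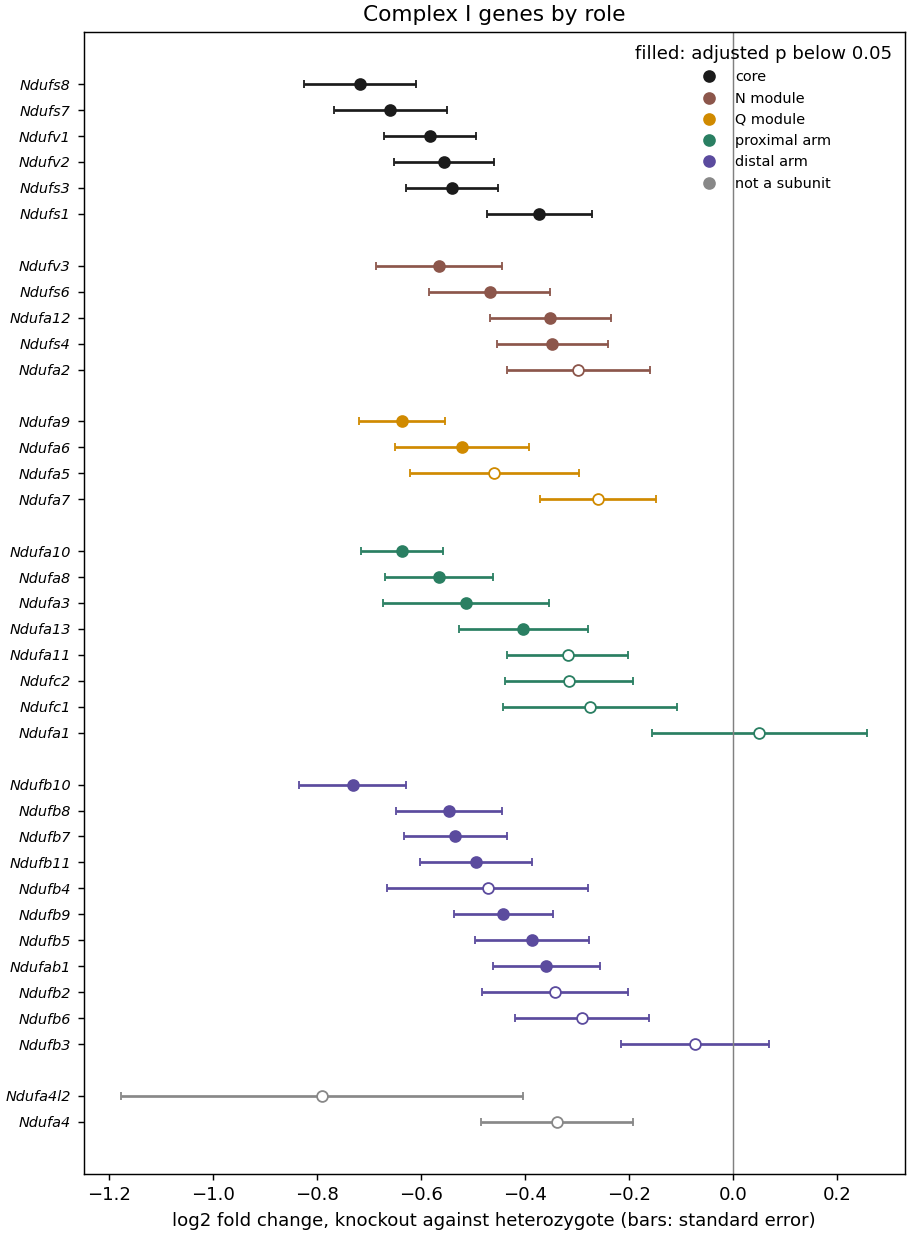
Log2 fold change of 36 tested members, knockout against heterozygote, on the horizontal axis with SE bars, ordered by role in complex I. Filled points have an adjusted p below 0.05; all core subunits drawn are filled and Ndufa1 in the proximal arm is the only point above 0.

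The 2 genes that the names take in but that are not subunits of complex I were not called by edgeR, DESeq2 or limma, and 1 of them (Ndufa4) had an unadjusted p below 0.05. Ndufa4 (chr6:11900373-11907446, 4 exons) was at 1476, 1138, 1236, 1839 and 1881 CPM in the heterozygotes and 1338, 979.9, 1375, 1198 and 1094 CPM in the knockouts. Heterozygotes 2 and 3 lay within the range of the knockouts, and the log2 fold change was −0.34 ± 0.146 (SE; adjusted p = 0.122). Ndufa4l2 (chr10:127514939-127517156, 4 exons), a gene known to be raised under low oxygen, was barely counted, at 2.5, 2.8, 3.5, 6.5 and 3.0 CPM against 2.4, 0.8, 1.6, 3.9 and 2.0 CPM. Its log2 fold change was −0.79 ± 0.386 (SE; adjusted p = 0.173), which is larger in size than that of any subunit and less certain.

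The spread among the members varied with gene length. The 14 tested subunits with merged exons of at most 600 bases had a median log2 fold change of −0.35 and 5 of them fell. The 21 longer ones had −0.55 and 19 fell. The limit of 600 bases was set after the values were seen, and no test was made of this difference. The median spread between animals of a group was 0.250 on the log2 scale in the short subunits and 0.159 in the longer ones. Over the 35 tested subunits, Spearman's rho with exon length was −0.66 for this spread and −0.44 for the log2 fold change, as descriptions across genes that share the same 10 libraries.

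The short subunits moved together within an animal. Relative to the mean of the heterozygotes, their median shift on the log2 scale was −0.03, −0.18, −0.28, 0.24 and 0.29 in the heterozygotes. It was −0.09, −0.62, −0.10, −0.40 and −0.49 in the knockouts. Heterozygotes 4 and 5 were high and knockout 2 was the lowest of all animals. All 174 tested genes of at most 600 bases, these subunits among them, had median shifts of −0.10, −0.19, −0.23, 0.23 and 0.26 in the heterozygotes and 0.09, −0.52, 0.10, −0.14 and −0.14 in the knockouts. Short genes as a whole thus followed the same order in the heterozygotes.

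The longer subunits had median shifts of −0.33, −0.68, −0.47, −0.48 and −0.63 in knockouts 1 to 5 and of −0.15 (heterozygote 3) to 0.10 (heterozygote 2) in the heterozygotes. All 5 knockouts were below all 5 heterozygotes in this median, and in the short subunits they were not. Over all 35 tested subunits, heterozygote 3 was the lowest of its group for 25 and knockout 2 the lowest of its group for 25. Knockout 1 was the highest knockout for 26. With a per-sample offset for gene length, 23 members were called with a median of −0.36. Leaving out heterozygotes 2 and 3 together, which were low in short genes, gave 32 calls and leaving out heterozygotes 4 and 5 together, which were high, gave 15; both choices were made after seeing the data. The part of transcript length in the spread between animals was not tested further.

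**Figure D3:**
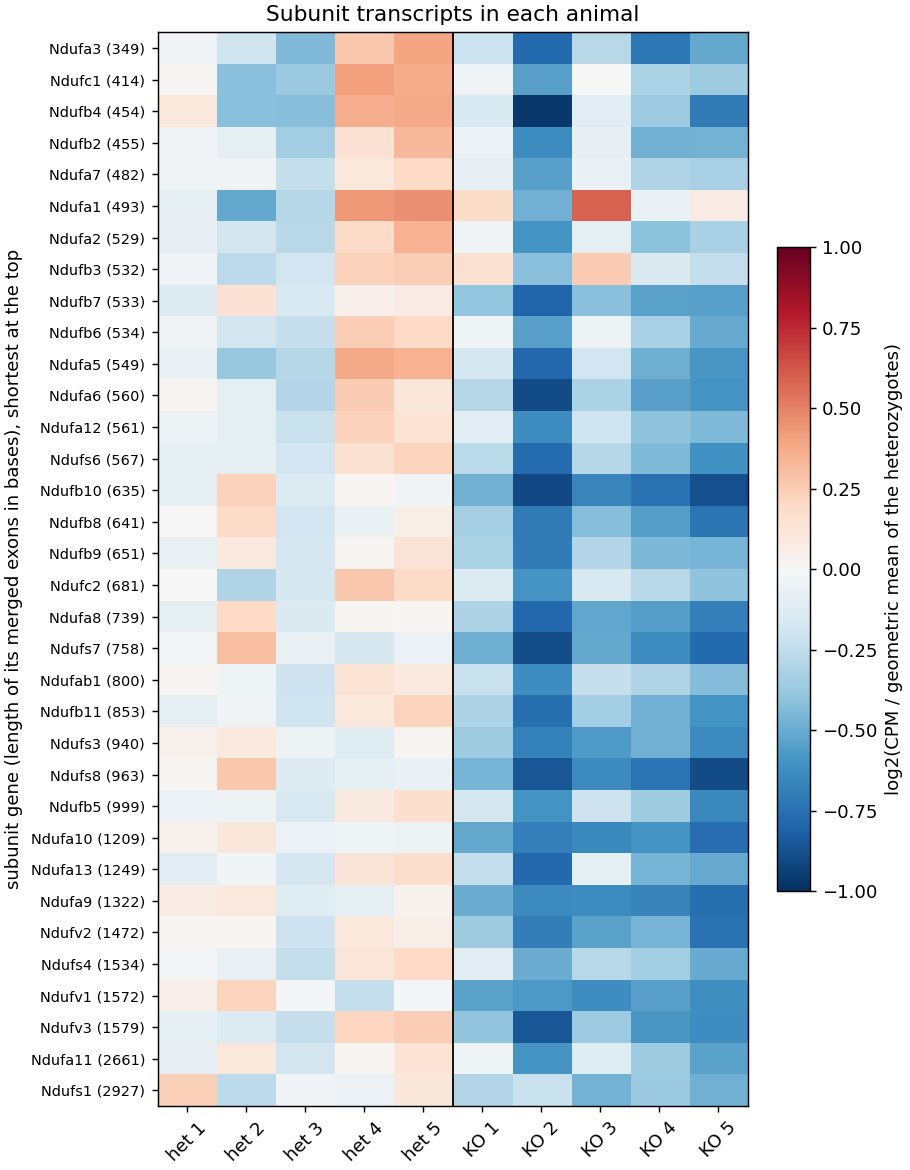
Log2 ratio of each animal's CPM to the geometric mean of the heterozygotes (colour) for 34 of the 35 tested subunits, ordered by the length of their merged exons with the shortest at the top. Heterozygotes 4 and 5 are red mostly in the upper rows, and knockout 2 is blue in every row.

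**Figure D4:**
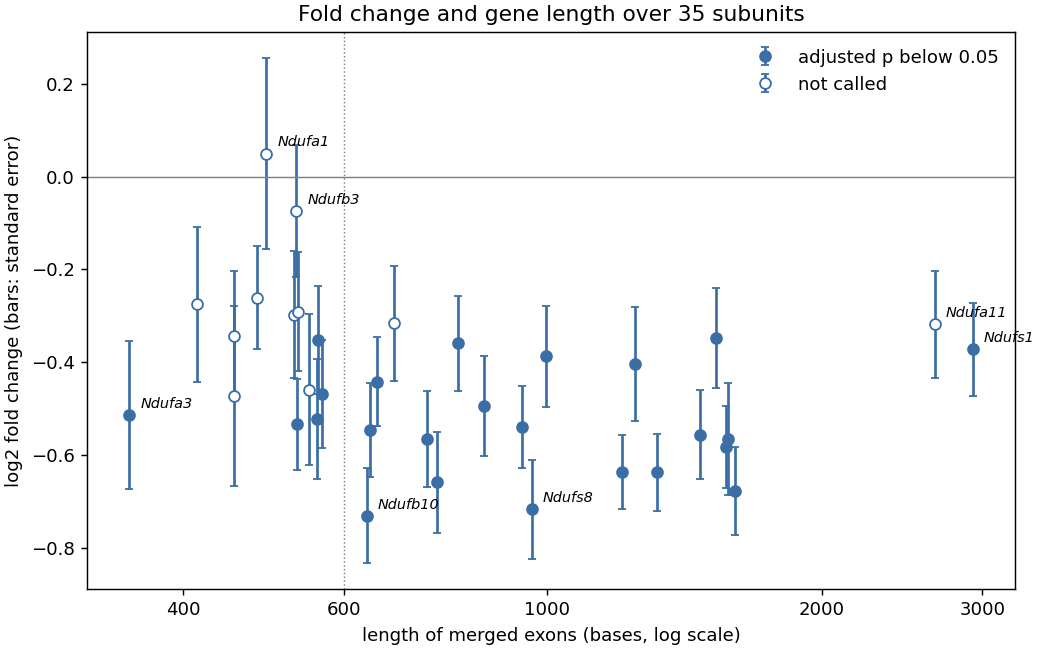
Log2 fold change (vertical axis, SE bars) against the length of merged exons in bases (log axis) for the 35 tested subunits, filled where the adjusted p was below 0.05. To the left of the dotted line at 600 bases 5 of 14 points are filled, and to the right of it 19 of 21.

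Levels were compared between genes as CPM per kilobase of merged exon. In the heterozygotes they ran from 2388 ± 237 (SD, n = 5) for Ndufb8, 2262 ± 192 for Ndufb9 and 1641 ± 168 for Ndufb10 down to 129 ± 34.4 for Ndufb4, an 18.5-fold range, with a median of 750.2 (Ndufa9). Ndufb8 and Ndufb9 did not differ beyond their spread, and both lay above Ndufb10 by more than it. In the knockouts the highest were Ndufb9 at 1665 ± 179.8 and Ndufb8 at 1636 ± 197, the lowest was Ndufb4 at 93.2 ± 22.4, the range was 17.9-fold and the median was 569. The subunits form 1 complex in equal copy numbers for nearly all of them, and their counts per kilobase were far from equal in both groups. The low end rests on Ndufb4, which has a pseudogene copy, and next above it in the heterozygotes was Ndufs4 at 232 ± 27.25. Such levels also depend on the annotated merged exon length. The counts of short genes as a whole varied between animals, and whether their recovery differed was not tested.

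The order of levels per kilobase changed little between groups. Of the 35 tested subunits 25 moved by at most 2 ranks. The largest shift was 5 ranks, for Ndufa1, which went from rank 8 to rank 3, and for Ndufs8, which went from rank 23 to rank 28. Low values such as that of Ndufb4 can be too low where reads also match a copy: Ndufb4c, a processed pseudogene, matches 390 of its bases at 97% identity or more. Matches of at least 100 bases to a transcript of another gene were found for 14 of the 38 members. Processed pseudogenes were among the matches of Ndufa12, Ndufab1, Ndufb4, Ndufs3 and Ndufs5. The search did not leave out genes that overlap a member, so a match is not always a separate copy. Tssk6, Rbm10 and BC002163 share annotated exon bases with the members they match, Ndufa13, Ndufb11 and Ndufs5.

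Genes that build or feed complex I and the other complexes of the chain were counted by list. Of 17 assembly factors 10 fell with a median log2 fold change of −0.36. The largest fall was in Foxred1, an assembly factor with an oxidoreductase fold, at 208, 225, 177, 155 and 171 CPM in the heterozygotes and 121, 132, 119, 128 and 120.5 CPM in the knockouts. The groups did not overlap, and the log2 fold change was −0.59 ± 0.106 (SE; adjusted p = 0.00140). Ndufaf1 (−0.43), Ecsit (−0.57) and Tmem70 (−0.59) fell too, and Ndufaf2, Ndufaf3, Tmem126b and Nubpl were not called. With library totals alone 6 assembly factors were called, and with the endothelial covariate 3. The count was 6 without heterozygote 1 or 5, without knockout 3 or 4 and without heterozygotes 2 and 3 together, and 5 without knockout 5.

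Of the 41 nuclear subunits of complexes II to V, 26 fell (63.4%) with a median of −0.43, close to the 24 of 35 (68.6%) and −0.47 of the complex I subunits; the difference was not tested. All 4 subunits of complex II fell, with Sdhb at 1035 ± 151 CPM in the knockouts against 1573 ± 147 in the heterozygotes (SD, n = 5). In complex III 6 of 9 fell, and Uqcrc1, a core protein, fell by 0.73 on the log2 scale. In complex IV 6 of 13 fell, and Cox7a1, its heart and muscle isoform, fell by 0.87. In complex V, the ATP synthase, 10 of 15 fell, and Atp5g3, a gene of the c ring, fell by 0.59. With the endothelial covariate 2 subunits were called in complex II and 2 in complex IV, and without heterozygotes 4 and 5 together 3 in complex IV. By edgeR 0 of the 41 rose, also at an unadjusted p below 0.05 and by DESeq2 and limma.

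Enzymes that deliver electrons or substrates to the same pool were measured beside them. Of 7 genes of other routes that pass electrons to ubiquinone, 5 fell with a median of −0.70, among them Prodh (proline dehydrogenase) by 1.11. Etfa (−0.74), Etfb (−0.73) and Etfdh (−0.70) also fell, and they belong to the same route, that of the electron transfer flavoprotein. Of 10 genes of ubiquinone synthesis 9 fell with a median of −0.55, led by Pdss1, which makes the isoprenoid tail, at −0.82. Of 8 genes of the malate-aspartate shuttle and transhydrogenase 5 fell with a median of −0.49, led by the transaminase Got1 at −0.68. Of 14 genes of iron-sulfur cluster synthesis 6 fell with a median of −0.30, and with the endothelial covariate 1 was called. None of these lists had a gene called higher by edgeR, DESeq2 or limma, or at an unadjusted p below 0.05.

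**Figure D5:**
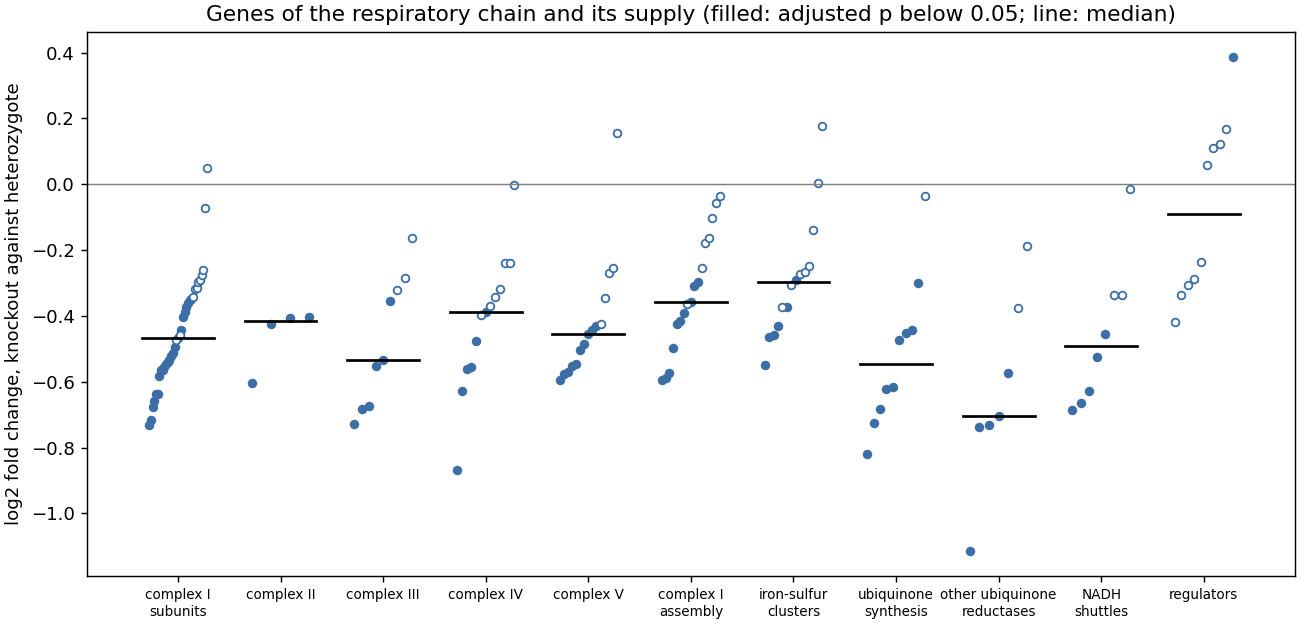
Log2 fold change of each tested gene (points, filled where the adjusted p was below 0.05) in the complex I subunits, complexes II to V and the lists that build or supply them, with the median as a line. The medians run from −0.70 for other genes that pass electrons to ubiquinone (drawn as other ubiquinone reductases) to −0.09 for the regulators. Only the regulators have a filled point above 0, for 1 of 10 genes, where 10.2% of all tested genes were called higher.

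Transcripts of known regulators of respiratory chain genes were mostly not called. Of 10 transcription factors and coactivators 0 were called lower by edgeR or DESeq2 and 1 by limma, 3 were lower at an unadjusted p below 0.05, and the median log2 fold change was −0.09. Of all tested genes edgeR called 8.64% lower and 10.2% higher, so 0 lower and 1 higher of 10 are near these shares. Ppargc1a, the coactivator PGC-1alpha, was at 197, 143, 253, 388 and 209.7 CPM in the heterozygotes and 141, 186, 147, 172 and 297 CPM in the knockouts. The groups overlapped widely, with heterozygote 4 the highest, and the log2 fold change was −0.34 ± 0.246 (SE; adjusted p = 0.379). The nuclear receptor Esrra had −0.31 ± 0.139 (adjusted p = 0.143), and was called without heterozygote 4 (adjusted p = 0.0350), without heterozygotes 4 and 5 (0.0181) and with a surrogate variable (0.0187).

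Esrrg, another estrogen-related receptor, was the 1 regulator of 10 called higher, beside 10.2% of all tested genes. It was at 71.2, 42.5, 52.4, 55.2 and 53.0 CPM in the heterozygotes and 65.9, 80.4, 73.0, 77.6 and 63.2 CPM in the knockouts. Heterozygote 1 lay within the range of the knockouts, and the log2 fold change was 0.39 ± 0.126 (SE; adjusted p = 0.0457). The call was lost without any of heterozygotes 2 to 5 or knockouts 1 to 4 and with RLE or upper-quartile scaling, the replicate number as a block, the endothelial or Y-linked covariate or the length offset. Nrf1 (0.11, adjusted p = 0.633) and Yy1 (0.17, adjusted p = 0.594), whose letters were searched in the promoters, were not called, and the sign of Nrf1 turned with the endothelial covariate (−0.12).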

How the data were processed

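Gene-level read counts of 10 cardiomyocyte libraries were used as deposited, whole numbers with no normalisation. Per the file headers, the authors counted with featureCounts 1.5.1 at its default settings against a UCSC annotation of mm10; by default it disregards strand and drops any read with more than 1 alignment or more than 1 gene under it. The submitters' processing notes name STAR 2.5.3a and Subread 1.5.2, while the alignment names in the header are the default of another program, so the aligner is uncertain. Per the labels' protocols, cDNA was made with SMART-Seq v4 and libraries with Nextera XT. Of 14 count columns, 4 match no sample of the series and were not used.

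Genes were kept by filterByExpr of edgeR at its defaults (at least 10 counts in enough samples, 15 in total); 11870 remained. After TMM scaling, knockouts were tested against heterozygotes by quasi-likelihood in edgeR 4.0.16 under R 4.3.3 with no covariate, with Benjamini-Hochberg adjustment over all tested genes and a call below 0.05. CPM are TMM-scaled, and log2 CPM use a prior count of 1. A merged exon length is that of the table. The smallest share that 3 counts can show was 1.19e-05% to 3.71e-05% of a library. The scripts were tested on simulated data.

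The members, lists and markers were chosen with earlier results of these data known. Values in every sample are given for Actn2, nuclear core subunits, the 6 other members with the largest and the 3 with the smallest log2 fold change in size, Ndufa4 and Ndufa4l2, and most other lists are represented by their called gene with the largest change; Ndufb4, Etfa, Etfb, Etfdh, Yy1 and others named without every value fall outside this rule. Alternatives were other scalings, filters and covariates, a replicate block, a length offset, a surrogate variable (sva 3.50.0) and leaving out each animal. DESeq2 1.42.0 and limma 3.58.1 (voom with sample weights) were run as other tools. Sequence matches to other genes, including genes that overlap a member, were searched in GENCODE vM21 transcripts at 97% identity or more over 100 bases. Mitochondrially encoded genes are not analysed here, and 2 genes that enter the counts and medians are not reported singly here.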

Additional observations from a re-analysis of the deposited data

Results flagged for a closer look

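In groups of 5, a value was set apart where its gap to the nearest other was more than 0.71 of the range of the group. Among 120 such groups 2 values stood apart, where chance gives about 1 in 20, or 6. The total count of heterozygote 1 was 25237696, with 10309615 as the nearest in its group (a gap of 0.87 of the range). Ndufv2 in heterozygote 3 was 9.893 log2 CPM, with 10.11 as the nearest (a gap of 0.713). It remained above every knockout, and without heterozygote 3 the fall of Ndufv2 was still called.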

How the results depend on the processing

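Direction was kept by the median of the complex I genes (−0.34 to −0.54) and by Actn2 under every alternative run, and 12 members were called and 34 negative in every fit. With library totals alone the calls over all genes were 1684 higher and 760 lower, against 1216 and 1025, and no other scaling moved that split as far. Same-numbered animals of the 2 groups correlated at −0.0604 to 0.185 in their deviations from the group means, and 2 of 5 heterozygotes correlated best with the knockout of their number, so the numbers were not taken to pair the samples. With the replicate number as a block 22 members were called (median −0.46), with 2 genes of the N module against 4 and 0 regulators against 1. With the endothelial covariate the calls were 876 over all genes, 12 members, 0 in the N module, 1 in the Q module, 2 in the proximal and 4 in the distal arm, 3 assembly factors, 2 in complex II, 2 in complex IV, 1 iron-sulfur gene and 0 regulators. With library totals alone 2 genes were called in the N module, 2 in the proximal arm and 6 among the assembly factors. The regulators had 0 calls with RLE or upper-quartile factors or the Y-linked covariate and 2 with a surrogate variable or limma. Leaving out 1 animal gave 18 to 27 members, 1699 to 2258 genes, 2 to 4 in the N module, 2 to 5 in the proximal arm, 5 to 11 assembly factors, 0 to 1 regulators and 0 to 1 of the genes that are not subunits. Leaving out heterozygotes 2 and 3 together, chosen after seeing the data, gave 32 members, 6 assembly factors and 1 gene that is not a subunit. Leaving out heterozygotes 4 and 5 together, chosen likewise, gave 15 members (median −0.34), 1 in the N module, 1 in the Q module, 2 in the proximal arm and 3 in complex IV. Signs turned only in genes that were not called. Ndufa1 was −0.06, −0.03 and −0.10 without heterozygote 2, heterozygote 3 and knockout 3, and −0.19 without heterozygotes 2 and 3. Its range with 1 animal left out was −0.1013 to 0.1727. Ndufb3 was 0.0412 with the length offset, −0.1637 to 0.0047 (without knockout 2) with 1 animal left out and 0.0941 without heterozygotes 4 and 5, where Ndufc1 was 0.0108 and Nrf1 −0.028. Nrf1 was −0.12 with the endothelial covariate and −0.0035 with the length offset. The cause was not tested in any of these, and fits with fewer animals also hold fewer samples. Depth was at least 8086656 counts per library; among the members it bears most on Ndufa4l2, at 0.8 to 6.5 CPM.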
